A study of Arabidopsis thaliana with 4 samples.

Results

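The NLR genes, which encode the intracellular immune receptors of plants, were examined for open chromatin in flowers of the mbd9-3 mutant and wild type (WT). Nuclear protein-coding genes of Arabidopsis thaliana were taken as NLR genes where the product in the TAIR10.1 annotation named NBS-LRR or NB-ARC, which held for 141 of 27444 genes. Of these, 91 were named as TIR class and 25 as CC class, and for 25 the product named neither class. The classes follow the wording of the product only, so genes with no class named may be of either class. The 2 mbd9-3 and 2 WT libraries were made by ATAC-seq, in which Tn5 transposase cuts accessible chromatin and tags the cut ends, from flowers of Columbia-0 plants grown in soil under long days for 4 weeks. Plants of the mbd9-3 genotype carry a T-DNA insertion in MBD9, a methyl-CpG-binding domain protein of the machinery that deposits the histone variant H2A.Z. Each library was deposited as its own list of peaks, and the mbd9-3 lists held 45208 and 37609 rows in replicates 1 and 2, against 44004 and 43962 rows in the WT lists. The labels do not say whether the replicates came from separate plants, and the genotype could not be checked from the peak lists. Of 5 floral identity genes, AP1, AG and SEP3 held a summit in each of the 4 libraries, whereas AP3 and PI did not.

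NLR proteins detect pathogen effectors inside the cell, either directly or through changes in a guarded host protein, and their activation triggers defence and often local cell death. TIR-class receptors signal through the EDS1 family of lipase-like proteins, while many CC-class receptors form channels at the plasma membrane, and a small group of CC-type helper NLRs acts downstream of several sensors. Many NLR genes lie in clusters of related copies, and their expression is kept low, because too much receptor leads to autoimmunity and stunted growth.

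Summit sites of selected NLR genes are shown first by their sequence, since later results turn on where summits lie and which motifs they hold. A summit is the base of highest read pileup in a peak, and a summit was counted for a gene when it lay between 1 kb upstream of the transcription start site (TSS) and the gene end. The 151 bases centred on the highest-ranked summit of 8 genes are given 5′ to 3′ on the strand of the gene, from TAIR10. AT5G05400, AT2G14080, NRG1.1, RPP4 and RPS2 were among the 10 highest-ranked genes, AT1G53350 and RRS1 were among those with the lowest unadjusted p between genotypes, and AT1G65850 held summits in both mbd9-3 libraries and in neither WT library. Capitals mark matches to the W-box core (TTGACC or TTGACT), the element bound by WRKY transcription factors, the G-box (CACGTG) or the TGA motif (TGACGT), on either strand. None of these motifs contains another.
AT5G05400, chr5:1601287-1601437, minus strand: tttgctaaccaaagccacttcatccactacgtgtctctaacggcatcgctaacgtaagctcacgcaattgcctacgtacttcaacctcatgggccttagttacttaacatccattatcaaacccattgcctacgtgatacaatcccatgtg
AT2G14080, chr2:5925044-5925194, plus strand: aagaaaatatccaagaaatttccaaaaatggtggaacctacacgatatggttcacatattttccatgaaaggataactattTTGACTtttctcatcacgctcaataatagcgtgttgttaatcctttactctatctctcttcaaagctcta
NRG1.1, chr5:26717911-26718061, minus strand: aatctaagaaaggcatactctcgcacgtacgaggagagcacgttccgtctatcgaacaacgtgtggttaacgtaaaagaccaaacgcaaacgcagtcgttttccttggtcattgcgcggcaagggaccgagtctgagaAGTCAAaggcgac
RPP4, chr4:9496355-9496505, minus strand: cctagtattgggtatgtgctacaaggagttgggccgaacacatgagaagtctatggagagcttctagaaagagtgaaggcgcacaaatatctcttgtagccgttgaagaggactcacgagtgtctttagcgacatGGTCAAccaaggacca
RPS2, chr4:13223454-13223604, plus strand: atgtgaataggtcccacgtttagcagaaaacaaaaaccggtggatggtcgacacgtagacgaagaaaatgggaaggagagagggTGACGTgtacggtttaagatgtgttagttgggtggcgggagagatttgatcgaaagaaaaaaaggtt
RRS1, chr5:18325965-18326115, plus strand: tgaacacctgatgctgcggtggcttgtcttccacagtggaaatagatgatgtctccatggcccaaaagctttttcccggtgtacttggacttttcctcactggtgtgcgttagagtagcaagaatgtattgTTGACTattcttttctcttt
AT1G53350, chr1:19903568-19903718, plus strand: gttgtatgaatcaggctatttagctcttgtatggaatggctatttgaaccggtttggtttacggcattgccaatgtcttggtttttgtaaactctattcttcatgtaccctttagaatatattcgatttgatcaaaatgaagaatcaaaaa
AT1G65850, chr1:24493872-24494022, plus strand: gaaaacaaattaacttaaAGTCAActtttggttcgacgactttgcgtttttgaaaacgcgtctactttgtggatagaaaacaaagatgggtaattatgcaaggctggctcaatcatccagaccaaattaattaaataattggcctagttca
The summit of AT2G14080 lay at the TSS itself, and those of AT5G05400 and NRG1.1 lay 107 and 28 bp upstream of theirs in WT replicate 1. The RRS1 summit of mbd9-3 replicate 2 lay 163 bp upstream of its TSS and inside RPS4, the gene on the opposite strand with which it forms a pair. The RPP4 and AT1G53350 summits also lay within neighbouring genes, AT4G16880 and AT1G53345. W-box cores were found at the summits of AT2G14080, NRG1.1, RPP4, RRS1 and AT1G65850, and a TGA motif at that of RPS2. The highest-ranked gene, AT1G59780, is not shown, and the 151 bases at its intron summit held none of the motifs. The genes shown were picked, so they give no rate of motifs.

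W-box cores were more frequent under NLR summits than under promoter summits in general. In 201-bp windows centred on summits in the 1-kb promoters of NLR genes, the core was present in 39.8% of 83 windows and 45.3% of 75 windows in mbd9-3 replicates 1 and 2, and in 35.2% of 71 windows and 47.6% of 84 windows in WT replicates 1 and 2. Over all promoter summits of the same lists, the share was 23.3% and 23.7% in mbd9-3 and 23.2% and 23.8% in WT. The share was thus higher at NLR genes in 4 of 4 libraries. All libraries share the same promoters, and a promoter can hold several windows, so they are no separate tests of this difference. In whole 1-kb promoters, summits or not, 72.3% of NLR genes and 67.3% of all genes held a W-box core. The G-box showed the opposite order, being present at 3.6% and 2.7% of NLR promoter summits in mbd9-3 and 4.2% and 3.6% in WT, against 12.6% to 14.0% of all promoter summits. The TGA motif was found at 10.7% to 11.3% of NLR summits and 9.9% to 10.6% of all promoter summits. In whole 1-kb promoters, the G-box was present in 7.09% of NLR genes and 14.8% of all genes. Its lower share at NLR genes was thus not confined to summits. The TGA motif was present in 30.5% of NLR genes and 21.98% of all genes in whole promoters, a wider gap than at summits. By class, the W-box core lay under 61.1% and 57.1% of CC summits in mbd9-3 and 46.7% and 55.0% in WT, with 14 to 20 summits in a library. For TIR genes the share was 35.3% and 45.8% in mbd9-3 and 35.6% and 49.0% in WT. For genes with no class named it was 28.6% and 30.8% in mbd9-3 and 18.2% and 33.3% in WT, the value of WT replicate 1 being below that of all promoter summits. Since these genes may be of either class, the order of CC and TIR at summits holds for the named genes only. In whole promoters the order was the other way, with a core in 74.7% of TIR and 68.0% of CC genes. The windows had similar base composition, with 60.4% to 63.0% A or T at NLR summits and 61.1% to 62.3% over all promoter summits. The differences between gene groups were not tested, and the shares describe letters in the reference sequence, not binding.

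**Figure D1:**
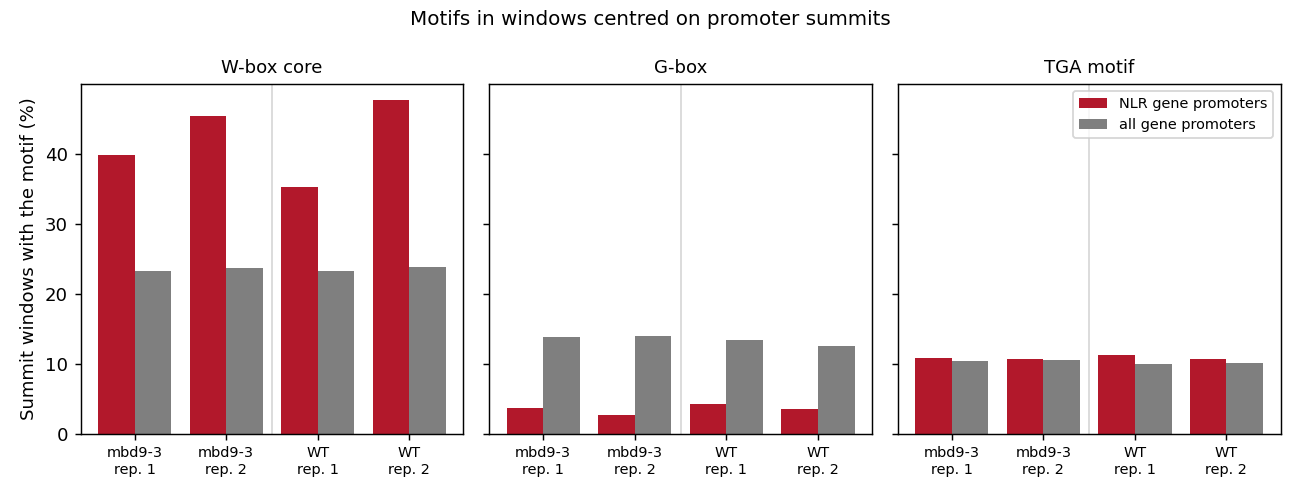
Share of 201-bp windows at promoter summits that hold each motif (y axis, percent), in the mbd9-3 libraries (left) and the WT libraries (right of each panel), with red bars for NLR promoters and grey bars for all promoters. The W-box core stands at 35.2% to 47.6% for NLR promoters, above the 23.2% to 23.8% of all promoters, and the G-box stands below.

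The first comparison asked how many NLR genes held a summit in each genotype. A summit lay in the window of 110 and 84 NLR genes in mbd9-3 replicates 1 and 2, and of 95 and 88 in WT replicates 1 and 2. The mean was 97 ± 18.4 genes in mbd9-3 and 91.5 ± 4.9 genes in WT (SD over 2 libraries a genotype; two-sided exact permutation p = 1.0). This design allows no p below 0.333, and the genotypes overlapped, since both WT counts lay between the 2 mbd9-3 counts. Mutant libraries exceeded WT by 15 genes among those numbered 1 and differed by -4 genes among those numbered 2, and without mbd9-3 replicate 1 the mean difference was -7.5 genes, with -0.5 genes for promoter summits and -0.0343 summits per kb. Restricted to summits in the 1-kb promoter, the counts were 64 and 53 in mbd9-3 and 52 and 55 in WT (two-sided exact permutation p = 0.667). Summits per kb of window came to 0.287 and 0.200 in mbd9-3 and 0.246 and 0.223 in WT (two-sided exact permutation p = 1.0). Benjamini-Hochberg adjustment over the 6 comparisons of genotypes made over libraries gave 1.0 for each.

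Relative to all protein-coding genes, NLR genes held summits less often in 3 of 4 libraries. The share with a summit was 78.0% and 59.6% in mbd9-3 and 67.4% and 62.4% in WT, whereas over all genes it was 75.6% and 68.3% in mbd9-3 and 75.3% and 73.8% in WT. The exception was mbd9-3 replicate 1, in which the NLR share was 2.46 percentage points higher. The NLR share of genes with a promoter summit was below that of all genes in each library, at 45.4% and 37.6% in mbd9-3 and 36.9% and 39.0% in WT, against 46.8% to 52.1%. NLR genes were long, with a median of 4445 bp against 2078 bp over all genes, so their windows offered more room for a summit. Per kb the NLR values above were below the 0.430 and 0.353 summits of all genes in mbd9-3 and the 0.422 and 0.413 in WT. The value per kb is no full correction for length, since summits gather near the TSS and a longer window then gives a lower value. Median windows were 5445 bp at NLR genes and 3078 bp over all genes. These differences between gene groups were described and not tested.

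**Figure D2:**
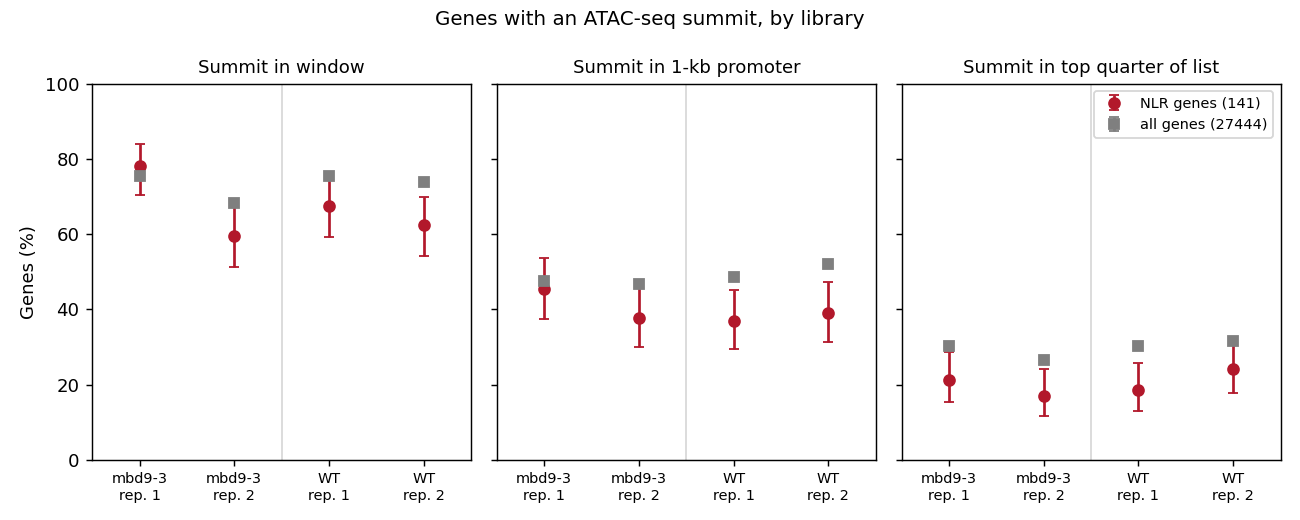
Share of genes (y axis, percent) with a summit anywhere in the window, in the 1-kb promoter, or in the highest-ranked 25% of the list, by library with mbd9-3 left of WT. Red circles are the 141 NLR genes, grey squares all 27444 genes, and bars are 95% Wilson intervals that cover counting error over genes only. NLR genes lie below all genes in each library except for the window share of mbd9-3 replicate 1, at 78.0%.

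The libraries differed most in summits within coding exons. Coding exons of NLR genes held 97 and 34 summits in mbd9-3 replicates 1 and 2, and 62 and 34 summits in WT replicates 1 and 2. Their share of the summits in NLR windows was 42.9% and 21.5% in mbd9-3 and 32.5% and 19.1% in WT, and over all genes it was 32.7% and 17.4% in mbd9-3 and 29.7% and 16.9% in WT. The libraries numbered 1 were thus the higher ones in both genotypes, at NLR genes and genome-wide. With summits in coding exons left out, a count added after seeing the data, 82 and 73 NLR genes held a summit in mbd9-3 and 79 and 77 in WT, a mean difference of -0.5 genes. Promoters held 83 and 75 of the NLR summits in mbd9-3 and 71 and 85 in WT, and 5′ UTRs held 26 and 37 in mbd9-3 and 32 and 39 in WT.

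Summits of NLR genes were most frequent within 200 bp of the TSS and sparse further downstream. Between 200 bp upstream and 100 bp downstream of the TSS there were 37.6 and 39.0 summits per 100 NLR genes in mbd9-3 and 32.6 and 43.3 in WT, against 40.6 and 46.0 over all genes in mbd9-3 and 43.0 and 53.3 in WT. Between 1 and 2 kb downstream, the mean per 100-bp bin was 1.99 and 0.43 summits per 100 NLR genes in mbd9-3 and 1.06 and 0.35 in WT. Over all genes that mean was 3.40 and 2.40 in mbd9-3 and 3.19 and 2.78 in WT, but shorter genes end within this distance and the next gene begins.

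**Figure D3:**
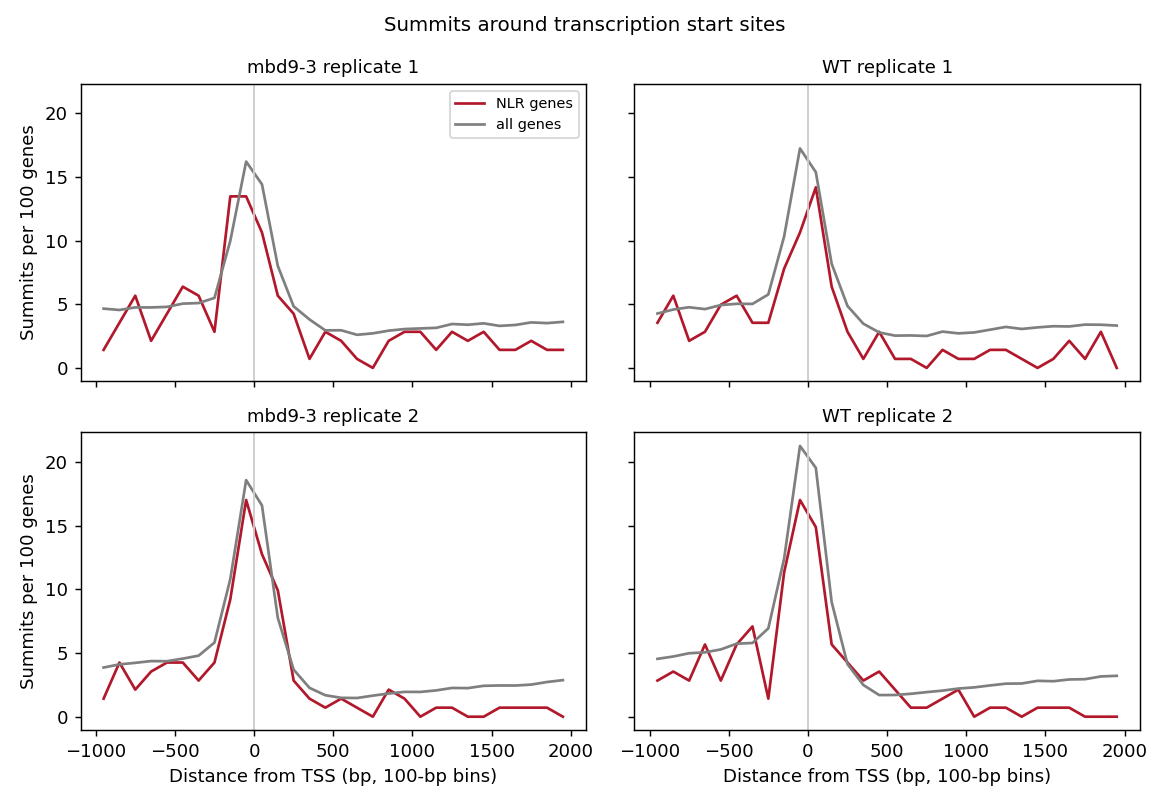
Summits per 100 genes (y axis) in 100-bp bins of distance from the TSS (x axis, bp), for NLR genes (red) and all genes (grey), with mbd9-3 libraries left and WT libraries right. Both lines peak within 200 bp of the TSS in each library, and the NLR line lies below that of all genes beyond 1 kb downstream.

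Accessibility was graded by rank, because fold enrichments of separately called lists share no scale. The percentile of a summit is its rank by fold enrichment among all rows of its list, with 100 the highest, and a gene takes its highest summit. A summit in the highest-ranked 25% of the list was held by 30 and 24 NLR genes in mbd9-3 (21.3% and 17.0%) and by 26 and 34 in WT (18.4% and 24.1%). The genotypes overlapped, with means of 27 ± 4.2 in mbd9-3 and 30.0 ± 5.7 in WT (SD over 2 libraries a genotype; two-sided exact permutation p = 0.667), and without WT replicate 2 the difference was 1 gene in the other direction. Over all genes the share was 30.2% and 26.5% in mbd9-3 and 30.4% and 31.4% in WT, above the NLR share in each library. The pileup at the best summit was low, with a median of 10 and 12.5 tags in mbd9-3 and 11 and 17 tags in WT and a range of 5 to 52 tags over the called genes. Read totals were not used, and at such pileups the absence of a summit means not detectable at this depth.

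Of the 141 genes, 64 held a summit in all 4 libraries, 21 in 3, 15 in 2, 28 in 1 and 13 in none. NLR genes thus held a summit throughout in 45.4% of cases (95% Wilson interval 37.4% to 53.6%), against 58.1% of all genes. The share called in a single library was 19.9% for NLR genes and 9.42% for all genes. Of the 28 NLR genes, 20 were called in mbd9-3 replicate 1 alone, or 14.2% of NLR genes, against 3.73% of all genes. The other 8 make up 5.67% of NLR genes, against 5.69% of all genes called in 1 of those 3 libraries alone. The 10 highest-ranked genes by mean percentile were AT1G59780, AT5G05400, AT2G14080, AT5G43730, AT5G47250, NRG1.1, AT1G63880, AT1G59620, RPP4 and RPS2.

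AT1G59780 ranked at the 97.8th and 94.9th percentiles in mbd9-3 and at the 97.8th and 95.7th in WT. Its summit lay in an intron, 856 to 925 bp downstream of the annotated TSS in the 4 libraries. AT5G05400 ranked at 96.6 and 95.6 in mbd9-3 and at 98.3 and 90.8 in WT, and its pileup of 52 tags in WT replicate 1 was the highest of any NLR gene. AT2G14080, a TIR-class gene, ranked at 93.2 and 97.8 in mbd9-3 and at 94.0 and 91.5 in WT, and its 4 summits fell within 4 bp of each other. NRG1.1 (AT5G66900), a helper NLR required by TIR-class sensors, ranked at 85.9 and 93.5 in mbd9-3 and at 94.7 and 93.2 in WT. RPP4, a receptor for downy mildew, ranked at 90.17 and 83.1 in mbd9-3 and at 93.4 and 95.9 in WT. RPS2, which guards RIN4 and detects the bacterial effector AvrRpt2, ranked at 91.2 and 90.6 in mbd9-3 and at 91.3 and 88.2 in WT, from a summit 797 to 810 bp upstream of its TSS. The RPS2 positions differed by at most 13 bp between libraries, and its ranks overlapped between genotypes.

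**Figure D4:**
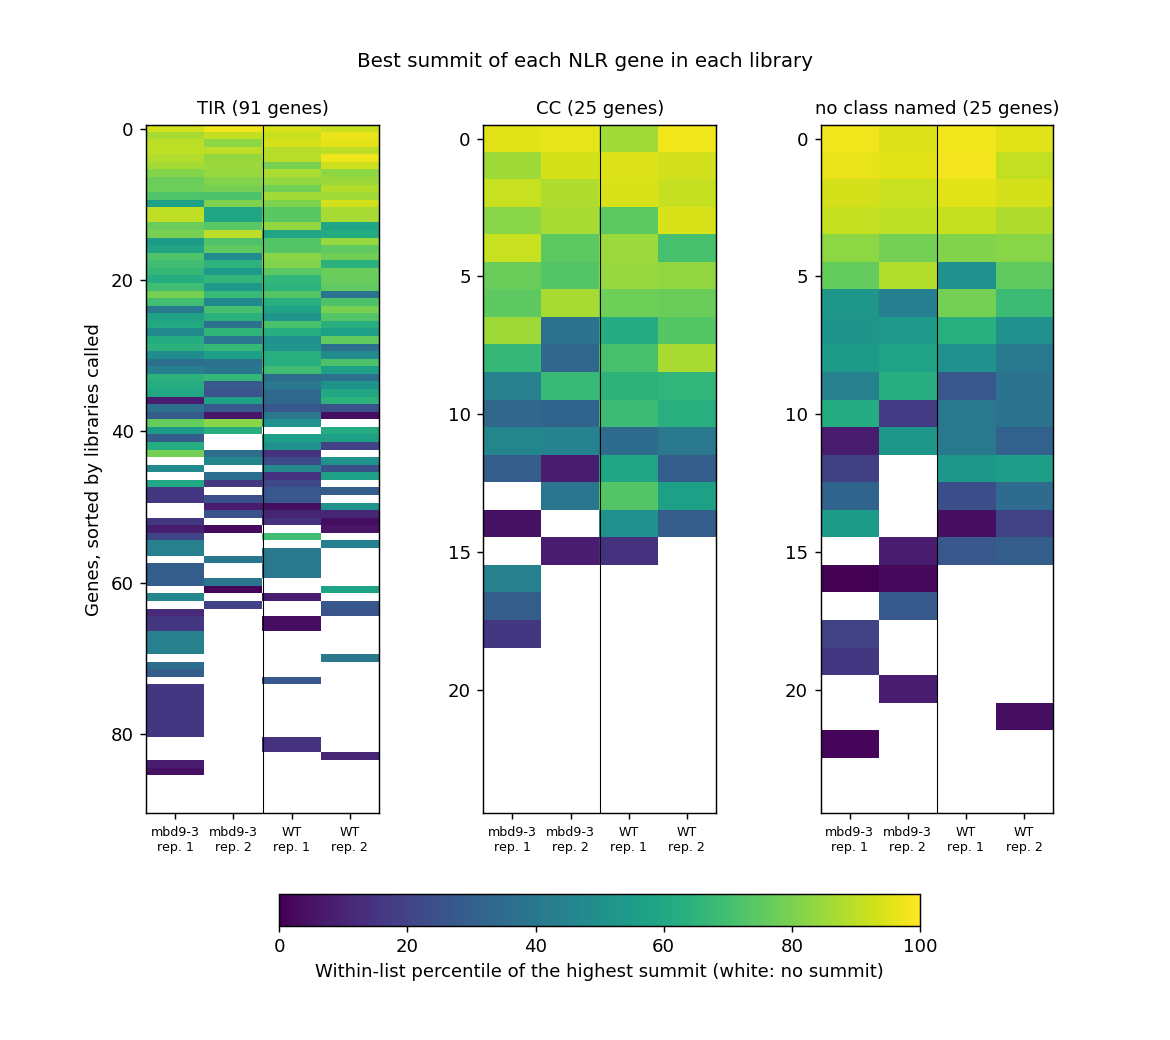
Within-list percentile (colour scale, 0 to 100) of the highest summit of each NLR gene (rows) in each library (columns, mbd9-3 left of WT), in panels for TIR (91 genes), CC (25 genes) and no class named (25 genes). White cells have no summit, and the 64 genes called in all 4 libraries fill the upper rows.

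Other well-known receptors were spread over the whole range of ranks. Of 30 well-known NLR genes listed for description, 24 were members by product, and 20 of these held a summit in each library. ZAR1, ADR1-L1, ADR1-L2, CHS3, TAO1 and RLM3 were not members, because their product did not carry the words used. Among the helpers, ADR1 ranked at 91.4 and 74.7 in mbd9-3 and at 85.1 and 71.0 in WT, and NRG1.2 (AT5G66910), the neighbour of NRG1.1, ranked at 77.7 and 73.3 in mbd9-3 and at 84.6 and 83.8 in WT. Among sensors, WRR4, a receptor for white rust, ranked at 88.6 and 84.3 in mbd9-3 and at 89.3 and 97.4 in WT. LAZ5, known from cell death mutants, ranked at 86.4 and 84.9 in mbd9-3 and at 79.6 and 92.2 in WT. At the lower end, RPM1, which guards RIN4 as RPS2 does, ranked at 7.69 and 52.8 in mbd9-3 and at 40.2 and 30.9 in WT. LOV1, the receptor that confers sensitivity to the toxin victorin, ranked at 43.4 and 62.4 in mbd9-3 and at 27.2 and 38.1 in WT. The genotypes overlapped at ADR1, LAZ5 and RPM1 and did not at NRG1.2, WRR4 and LOV1. None of these genes passed the limma test given with the comparison of genotypes. Even full separation of the libraries gives no two-sided exact permutation p below 0.333 in this design. The share of all genes without overlap is not given, so separation alone shows no genotype difference at NRG1.2, WRR4 or LOV1.

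The 4 listed members that were not called throughout ranked at the 56.8th percentile or lower. SUMM2, which monitors a MAP kinase pathway, and RLM1, a receptor for the blackleg fungus, held a summit only in mbd9-3 replicate 1, at percentiles of 1.52 and 36.2. SOC3 (AT1G17600) was called at 19.2 in mbd9-3 replicate 2 and at 27 in WT replicate 2. CSA1 was called at 29.4 in mbd9-3 replicate 1 and at 56.6 and 56.8 in the WT libraries.

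The order of the classes by presence varied between libraries, and CC summits lay in promoters more often than TIR summits. Of 91 TIR genes, 74 and 53 held a summit in mbd9-3 and 63 and 56 in WT, and of 25 CC genes, 17 and 15 did in mbd9-3 and 16 and 15 in WT. The TIR share minus the CC share was 13.3 and -1.76 percentage points in mbd9-3 and 5.23 and 1.54 in WT (two-sided exact permutation p = 1.0), and without mbd9-3 replicate 1 the genotypes differed by -5.14 points on this measure. Among genes with no class named, which include RPM1, RPS2, RPP7 and RPP13, 19 and 16 of 25 held a summit in mbd9-3 and 16 and 17 in WT. Promoter summits were present at 52.0% and 44.0% of CC genes in mbd9-3 and 48.0% and 44.0% in WT, against 44.0% and 37.4% of TIR genes in mbd9-3 and 35.2% and 35.2% in WT. Coding exons held 46.5% and 25% of TIR summits in mbd9-3 and 39.8% and 22.1% in WT, and 21.9% and 4.55% of CC summits in mbd9-3 and 12.0% and 16.7% in WT. CC summits were few, at 22 to 32 in a library.

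In the genome, 96 NLR genes fell into 34 clusters and 45 stood alone. A cluster held neighbouring NLR genes at most 200 kb apart with at most 8 other protein-coding genes between them. Clustered genes held a summit in 76.0% and 54.2% of cases in mbd9-3 and 65.6% and 57.3% in WT, and singletons in 82.2% and 71.1% in mbd9-3 and 71.1% and 73.3% in WT. The clustered share was lower in 4 of 4 libraries, by 6.18 and 16.9 percentage points in mbd9-3 and by 5.49 and 16 points in WT. The genotypes did not separate on this difference, whose mean was -11.6 ± 7.6 points in mbd9-3 and -10.8 ± 7.5 points in WT (SD over 2 libraries a genotype; two-sided exact permutation p = 0.667). Without mbd9-3 replicate 2 or WT replicate 1 the difference between genotypes turned to 4.58 and 4.48 points. For promoter summits the order was not constant, since clustered genes held one in 41.7% and 35.4% of cases in mbd9-3 and 37.5% and 39.6% in WT, and singletons in 53.3% and 42.2% in mbd9-3 and 35.6% and 37.8% in WT. All 4 libraries share the same genes, so they do not test the difference between clustered and single genes.

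The largest clusters differed in how many of their genes were called. The cluster with RPP4, SNC1 and RPP5 on chromosome 4, from 9482429 to 9551028, held 8 TIR genes, of which 6 and 4 were called in mbd9-3 and 7 and 5 in WT. SNC1, whose gain-of-function allele causes autoimmunity, ranked at 77.8 and 79.6 in mbd9-3 and at 78.8 and 88.3 in WT, and RPP5, another receptor for downy mildew, at 72.5 and 48.3 in mbd9-3 and at 82.2 and 78.2 in WT. The cluster with RPP7 on chromosome 1, from 21690642 to 21833018, also held 8 genes, of which 4 and 3 were called in mbd9-3 and 3 and 3 in WT. The cluster with RPS4 and RRS1 on chromosome 5, from 18283663 to 18332920, had 7 of 7 TIR genes called in mbd9-3 replicate 1 and 3 of 7 in each of the other libraries. Its genes AT5G45200, AT5G45210, AT5G45220 and AT5G45230 were called in mbd9-3 replicate 1 alone, from summits inside the genes at percentiles of 16 to 43.4. In a further cluster on chromosome 5, from 18835605 to 18872494, which holds RPS6 and VICTR (AT5G46520), 5 of 5 genes were called in each library. Neighbouring windows overlap in places, and 8 and 6 summits in mbd9-3 and 4 and 9 in WT were counted for more than 1 NLR gene.

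Sequence copies can limit what is seen, since by the study's methods only reads with a single match in the genome were kept. The uniqueness of a window was taken as the share of its 50-base words that occur once in the nuclear genome. It was below 90% in 34 NLR genes (24.1%), against 5.25% of all genes. The median was 99.8% over all NLR genes and 77.0% over the 13 genes with no summit in any library. Of these, 4 CC genes of the RPP7 cluster, AT1G58807, AT1G58848, AT1G59124 and AT1G59218, had 0 to 1.57% of their words found once. The windows of AT1G58807 and AT1G59124 share all their words, as the 151 bases around their TSSs show, printed without marked motifs.
AT1G58807, chr1:21780001-21780151, plus strand: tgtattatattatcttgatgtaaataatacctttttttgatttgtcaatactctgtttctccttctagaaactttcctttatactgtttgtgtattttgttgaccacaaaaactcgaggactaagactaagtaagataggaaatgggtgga
AT1G59124, chr1:21816259-21816409, plus strand: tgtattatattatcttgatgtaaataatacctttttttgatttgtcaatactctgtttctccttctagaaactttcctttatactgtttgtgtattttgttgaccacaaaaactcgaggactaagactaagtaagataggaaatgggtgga
For these genes the absence of a summit is no measurement of closed chromatin. The other uncalled genes included AT1G62630, AT3G44670 and AT4G16920, with 77.0%, 59.3% and 70.2% of their words found once. In the remaining uncalled genes, AT3G46710, AT4G10780, AT4G11340, AT4G23510, AT5G17970 and AT5G63020, the share was 95.3% to 100%. VICTR, with 43.9%, was called in each library. Whether uniqueness accounts for missing summits was not tested.

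In windows with at least 90% unique words, a restriction added after seeing the data, the mean order of the classes by presence turned. The TIR share minus the CC share averaged 4.58 points in all windows and -11.4 points under the restriction. There, 88.2% and 76.5% of 17 CC genes held a summit in mbd9-3 and 76.5% and 70.6% in WT, against 81.7% and 59.2% of 71 TIR genes in mbd9-3 and 63.4% and 62.0% in WT. A promoter summit was present at 76.5% and 64.7% of these CC genes in mbd9-3 and 70.6% and 64.7% in WT, and at 38% and 32.4% of the TIR genes in mbd9-3 and 29.6% and 31% in WT. Summits in the highest-ranked 25% were held by 47.1% and 29.4% of the CC genes in mbd9-3 and 35.3% and 41.2% in WT, and by 16.9% and 11.3% of the TIR genes in mbd9-3 and 12.7% and 16.9% in WT. CC genes stood above TIR genes on each of these measures in 4 of 4 libraries, which is a description of 17 and 71 genes and was not tested. For promoter summits and the highest-ranked 25%, CC genes were already above without the restriction. In that 25% stood 32% and 20% of all CC genes in mbd9-3 and 24% and 28% in WT. The TIR values were 17.6% and 14.3% in mbd9-3 and 15.4% and 23.1% in WT. Genes with no class named were left out of both groups, and counting them as CC was not done under this restriction. Clustered genes remained below singletons under this restriction, by 10.3 percentage points on average.

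**Figure D5:**
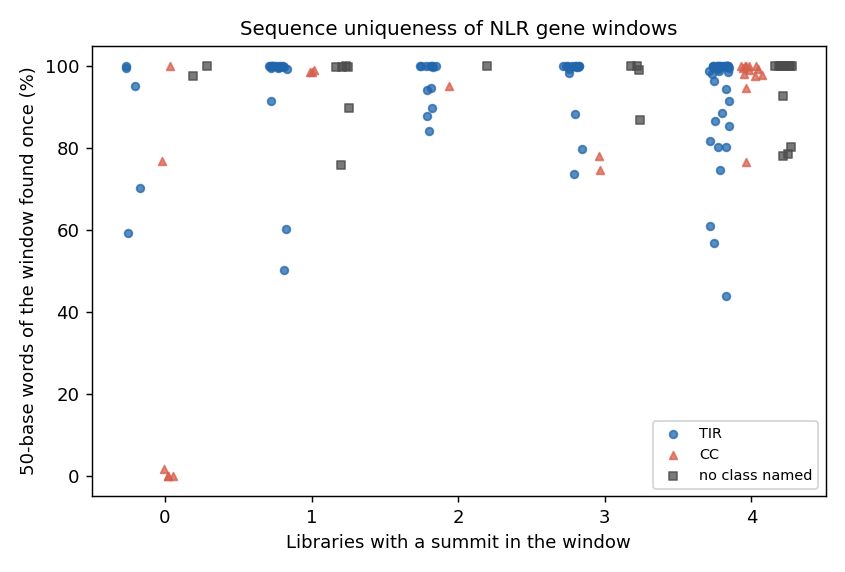
Share of 50-base words in the window that occur once in the nuclear genome (y axis, percent) for each NLR gene, by the number of libraries with a summit (x axis), with blue circles for TIR, red triangles for CC and grey squares for no class named. The 4 CC genes between 0 and 1.57% were called in 0 libraries, while genes near 100% occur at each number of libraries.

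Genes called in both libraries of one genotype and in neither of the other were few. In both mbd9-3 libraries and neither WT library, 2 of 141 genes held a summit, against 0.893% of all genes. They were AT1G65850, a TIR gene at percentiles of 29.4 and 39.1, and AT3G46730 at 0.323 and 2.43. In both WT libraries and neither mbd9-3 library, 0 of 141 genes held a summit, which allows a share of up to 2.13%, against 1.75% of all genes. The AT1G65850 summits lay 905 and 731 bp upstream of the TSS, 174 bp apart, at pileups of 7 and 9 tags. Both summits of AT3G46730 lay within the gene but at different places, 1052 and 301 bp downstream of the TSS, at pileups of 6 and 7 tags. With only 1 library left in a genotype the counts rose by construction, to 22 genes in mbd9-3 only without mbd9-3 replicate 2. The matching share of all genes is not given. The summits of both genes lie near the lowest pileup listed, which was 5 or 6 tags at NLR genes.

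Relative strength was compared between genotypes at the 64 NLR genes called throughout. Ranks of the best summits were turned to normal scores and fitted with limma across 15935 genes. After Benjamini-Hochberg adjustment 0 NLR genes differed, as did 0% of all genes, and the smallest adjusted p by limma at an NLR gene was 0.905. At an unadjusted p under 0.05 there were 4 NLR genes (6.25%), against 5.32% of all genes. The score was lower in mbd9-3 at 47 of 64 NLR genes (73.4%) and at 59.8% of all genes, with a median difference of -0.12 at NLR genes and -0.08 at all genes. Without mbd9-3 replicate 1 these shares were 61.4% of 70 NLR genes and 61.2% of all genes. The NLR share stayed higher without mbd9-3 replicate 2 (57.5% against 50.3%), WT replicate 1 (66.7% against 60.1%) or WT replicate 2 (64.7% against 57.8%). With ranks by p-value the shares were 75% and 59.9%, and the medians were -0.09 and -0.08. The difference between NLR genes and all genes was not tested.

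The 4 genes with the lowest unadjusted p were AT1G53350, AT1G63740, RRS1 and AT5G49140. The CC gene AT1G53350 ranked at 33.0 and 32.2 in mbd9-3 and at 68.6 and 62.8 in WT, a score difference of -0.86 ± 0.29 (SE; limma, adjusted p = 0.905). AT1G63740, a TIR gene, ranked at 36.8 and 37.7 in mbd9-3 and at 62.7 and 72.0 in WT. In the other direction, RRS1, which carries a WRKY domain as a decoy for effectors, ranked at 64.3 and 66.4 in mbd9-3 and at 35.3 and 36.9 in WT, a score difference of 0.75 ± 0.29 (SE; limma, adjusted p = 0.905). Its highest summit in WT replicate 1 lay 3034 bp downstream of the TSS, while the other libraries had theirs 163 to 167 bp upstream. RPS4, which shares that upstream summit, ranked at 64.3 and 66.4 in mbd9-3 and at 52.3 and 36.9 in WT. The value of 52.3 in WT replicate 1 came from another summit, 1255 bp downstream of the RPS4 TSS, against 135 to 139 bp in the other libraries. AT5G49140, a TIR gene, ranked at 79.5 and 90.08 in mbd9-3 and at 58.6 and 61.5 in WT. At these 4 genes the libraries of the genotypes did not overlap, but none passed the adjusted threshold. They were picked by their low p between genotypes, so the lack of overlap comes with the pick and is no further support. The share of all genes without overlap is not given here. When libraries without a summit were placed at the lowest rank, 1.5% of 21462 genes passed, among them AT1G65850. That setting gives both WT libraries of AT1G65850 the same imputed score, so it restates the pattern of calls and is no separate test.

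The genes that act with NLR proteins were mostly called throughout. Of 20 such genes, 16 held a summit in all 4 libraries, as did 58.1% of all genes, and 1 held none. EDS1, the partner of PAD4 and SAG101 downstream of TIR receptors, ranked at 91.4 and 82.0 in mbd9-3 and at 87.6 and 87.2 in WT, and SAG101 at 90.6 and 93.2 in mbd9-3 and at 91.5 and 96.2 in WT. SGT1B, a co-chaperone that stabilises NLR proteins, ranked at 95.7 and 96.3 in mbd9-3 and at 97 and 97.3 in WT. SRFR1, a negative regulator of SNC1 and other TIR genes, ranked at 88.6 and 95.9 in mbd9-3 and at 88.5 and 89.5 in WT. RIN4, the protein guarded by RPS2 and RPM1, ranked at 78.4 and 79.1 in mbd9-3 and at 79.9 and 87.1 in WT. CPR1, an F-box protein that limits NLR levels, was called at 29.4 in mbd9-3 replicate 1 and at 64.6 and 56.8 in the WT libraries, and not in mbd9-3 replicate 2. EDS5, a salicylic acid transporter, was called in 2 libraries, at 22.6 in mbd9-3 replicate 2 and at 19.6 in WT replicate 1. Of the RPW8 homologues HR3 and HR4, HR3 had no summit and HR4 had one in mbd9-3 replicate 1 only. In the highest-ranked 25% of their lists stood 7 and 9 of the 20 in mbd9-3 and 10 and 7 in WT, while of all genes 26.5% to 31.4% did.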

How the data were processed

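ATAC-seq peak lists of 2 mbd9-3 and 2 WT flower libraries were used, grouped by sample title. Per the study's methods and processing notes, the authors trimmed reads with Trim Galore, mapped them to TAIR10 with Bowtie (Bowtie2 in the notes), kept single matches and used SAMtools to drop organelle and duplicate reads. The caller of peaks and any Tn5 shift are not given in the sources used here. Each deposited list gives a fold enrichment (a ratio to the library's own background), a −log10 p-value, a −log10 q-value and a score. The score deposited by the authors was not used. Read totals are unknown, and pileups were solved from fold and p-value, taking p as a Poisson tail, within 0.0001.

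NLR genes, classes and the gene lists were chosen with earlier results of these data known. Gene models were TAIR10.1 (nuclear sequence as in TAIR10). Coordinates are 1-based. The middle of the interval stood in for a missing summit (86 and 45 rows in mbd9-3, 81 and 49 in WT, of which 2 lay in NLR windows). Named genes were the well-known NLR genes, the 10 highest by mean percentile, up to 5 a direction called in 1 genotype or by lowest limma p, and the largest clusters. Libraries were compared by exact two-sided permutation (6 assignments). Ranks were fitted with limma 3.58.1 in R 4.3.3, a threshold of 0.05 and Benjamini-Hochberg adjustment, tested on simulated data. The rest was done in Python 3.11.15 with pandas 2.3.3, numpy 2.4.6, matplotlib 3.10.9 and scipy 1.17.1. Alternatives were a −log10 q-value of at least 5, 37609 top rows of each list, overlap of at least 1 bp, windows from 500 bp or 2 kb upstream, the nearest TSS, ranks by p-value, a replicate block, genes without a class counted as CC, clusters of at most 50 kb and leaving out each library. P-values measure only the spread between these libraries, which may be technical.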

Additional observations from a re-analysis of the deposited data

How the results depend on the processing

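Pileups at NLR summits were low, each list was called separately, and words found at more than 1 place may have given fewer reads or none. How far these limit the values was not tested. Each comparison of genotypes rests on 2 libraries a group. Among rows with a −log10 q-value of at least 5, the difference between mbd9-3 and WT changed direction, to -9 genes with a summit, -3.5 genes with a promoter summit, -0.0191 summits per kb and 6.94 percentage points between the clustered and singleton shares. Under that filter the NLR share minus the share of all genes in the highest-ranked 25% was -6.40 points. There the TIR share minus the CC share was -9.05 points on average, and 1 gene was called in mbd9-3 only and 6 in WT only. The share of all genes called in 1 genotype only is not given for the alternatives, so such counts are no result about NLR genes. Windows from 500 bp upstream gave 3.06 points between clustered and singleton shares, and 1 gene called in mbd9-3 only. Windows from 2 kb upstream moved the difference in the highest-ranked 25% to -12.1 points, and the nearest TSS moved the mean clustered minus singleton share to -2.78 points. In windows with at least 90% unique words the TIR minus CC share was -11.4 points on average, and outside coding exons the difference between genotypes was -0.5 genes. With 37609 top rows of each list, the genotype difference in the clustered minus singleton share was 0.903 points and the mean TIR minus CC share was -1.11 points. The cause of these changes was not tested.

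Leaving out 1 library at a time, the difference between mbd9-3 and WT ranged from -7.5 to 18.5 genes with a summit, from -0.5 to 10.5 genes with a promoter summit, from -0.0343 to 0.0527 summits per kb, and from -7.0 to 1.0 genes in the highest-ranked 25%. It ranged from -5.14 to 9.93 points for TIR minus CC and from -6.18 to 4.58 points for clustered minus singleton genes. With 1 library left in a genotype, 4 to 22 genes were called in mbd9-3 only and 3 to 9 in WT only, and 22 was the count without mbd9-3 replicate 2. Here too the share of all genes is not given, so these counts do not set NLR genes apart.

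Absent libraries at the lowest rank gave 1 NLR gene called by limma, by construction of the imputed rank. Libraries with the same number correlated in their deviations (r = 0.114 over 15935 genes), but 2 pairs do not show that the numbers pair the libraries. With a replicate block limma called 0 NLR genes, with a smallest adjusted p of 0.611. Over all alternatives, 16 planned and 2 added values changed direction and 16 planned values moved. The other 104 planned and 9 added values did neither, although 1 of them, the difference in the highest-ranked 25% without mbd9-3 replicate 2, was 0.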
